A study of Homo sapiens with 3 samples.

Results

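The miR-200 family comprises miR-200a, miR-200b, miR-200c, miR-141 and miR-429, small RNAs typical of epithelial cells, and its members were taken as every arm of these miRs with a row in a count table of HepG2 extracellular vesicles (EVs). The rule found 7 of 512 miR names, namely hsa-miR-200b-3p, hsa-miR-200b-5p, hsa-miR-200a-3p, hsa-miR-200a-5p, hsa-miR-429, hsa-miR-200c-3p and hsa-miR-141-3p. miR-200c-5p and miR-141-5p were not analysed here. HepG2 is an established human line derived from a liver tumor, labelled as wildtype hepatocytes, and EVs are membrane-enclosed particles that cells shed. The cells were kept in serum-free medium for 48 h, EVs were pelleted at 100000 × g for 70 min, and about 200 ng of RNA per batch went into a small RNA library. There were 3 batches of this 1 condition, with no untreated or other group, and the producer cells were not sequenced here.

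Family members repress ZEB1 and ZEB2, transcription factors that switch off epithelial genes such as E-cadherin, and ZEB1 in turn represses the miR-200 genes. High miR-200 levels thereby hold cells in an epithelial state, and their loss accompanies the transition to a mesenchymal state. The family is made from a pair of clusters, each transcribed as 1 long RNA. MIR200B, MIR200A and MIR429 form the cluster on chromosome 1, and MIR200C and MIR141 that on chromosome 12. Bases 2 to 8 of a miR, its seed, largely decide which transcripts it pairs with.

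The members fall into a pair of seed groups that cut across the clusters. The mature sequences from RefSeq (GRCh38.p14) are shown, with the seed in capitals, because the counts below differ sharply between members that are almost alike in sequence.
miR-200b-3p: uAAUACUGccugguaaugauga
miR-429: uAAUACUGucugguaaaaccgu
miR-200c-3p: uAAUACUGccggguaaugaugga
miR-200a-3p: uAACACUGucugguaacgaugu
miR-141-3p: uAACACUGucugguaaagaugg
miR-200b-5p: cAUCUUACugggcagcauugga
miR-200a-5p: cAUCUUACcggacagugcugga

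All 7 names matched a RefSeq entry. Counted from the 5′ end, the seeds of miR-200b-3p and miR-200a-3p differ only by U4C. Among 2370 mature names in the RefSeq table, 3 carried the seed of miR-200b-3p and 2 carried that of miR-200a-3p, and all 5 were family members. Over the 22 bases compared, miR-200b-3p and miR-200c-3p, which lie on different chromosomes, differed by U11G and A22G, and miR-200c-3p has 1 more base. Likewise miR-200a-3p and miR-141-3p differed by C17A and U22G. The counting tool is not given in the sources used here, so reads that such pairs could share cannot be told apart.

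On GRCh38, MIR200B lies on the plus strand of chromosome 1 from 1167104 to 1167198, MIR200A from 1167863 to 1167952 and MIR429 from 1169005 to 1169087, a span of 1984 bases that lies within the RefSeq gene MIR200BHG, a long noncoding RNA. GENCODE 29 places no other gene over these hairpins. MIR200C lies on the plus strand of chromosome 12 from 6963699 to 6963766 and MIR141 from 6964097 to 6964191, a span of 493 bases inside the long noncoding RNA gene MIR200CHG. The hairpins of the best counted member of each cluster are given with the 3p arm in capitals, to show the arm that the counts came from.
MIR200B: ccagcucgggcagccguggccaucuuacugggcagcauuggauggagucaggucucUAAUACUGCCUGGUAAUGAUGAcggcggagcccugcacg
MIR200C: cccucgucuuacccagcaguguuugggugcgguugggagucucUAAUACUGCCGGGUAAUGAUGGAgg

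The libraries were shallow, with 8704, 10834 and 7933 miR counts in batches 1, 2 and 3. The floor, the share allowed for a count of 0, was taken as 3 counts of the total. It came to 0.0345%, 0.0277% and 0.0378% in the batches and to 0.0109% of the 27471 counts of all batches. The exact two-sided 95% interval of a count of 0 reached higher, to 0.0424%, 0.0340% and 0.0465% in the batches and 0.0134% over all. The hepatocyte list of miR-122-5p, miR-192-5p, miR-194-5p and miR-148a-3p held 16.2% ± 0.428 (SD, n = 3 batches) of the counts, most of it miR-148a-3p with 11.4%. miR-122-5p, the miR that defines hepatocytes, was present in each batch at 2.48%, 0.905% and 1.64%, and it differed between them (adjusted p = 8.13e-16 in an exact multinomial test over 64 miRs). miR-194-5p held 0.061%. The blood cell list had 3 counts in all, with miR-451a and miR-142-3p at 0, and the endothelial list had 11, all of miR-126-3p. Batch 1 stood apart, with the highest share of 43 of 64 miRs with at least 30 counts. Nothing in the labels says whether the batches were separate cultures, so the spread between them may be technical. Amplified reads carried no molecular identifiers and may repeat a molecule. Intervals, floors and the p-values of the exact multinomial test therefore cover no more than counting error.

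The family as a whole was a minor part of the EV miRs. Its counts in the 3 batches were 32, 29 and 16, or 77 of 27471. These counts correspond to 0.368%, 0.268% and 0.202% of the miR counts, and the mean was 0.279% ± 0.0836 (SD, n = 3 batches). Each batch exceeded its floor. The exact Clopper-Pearson 95% interval ran from 0.252% to 0.519% in batch 1, from 0.179% to 0.384% in batch 2 and from 0.115% to 0.327% in batch 3, so the intervals overlapped. Without replicate 1 the mean was 0.235%. In RNA pooled from many vesicles, fewer vesicles that carry a miR and fewer copies per vesicle cannot be told apart.

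Nearly all of this signal came from miR-200b-3p. It had 28, 24 and 14 counts in batches 1, 2 and 3, or 0.322%, 0.222% and 0.176% of the miR counts, with a mean of 0.240% ± 0.0743 (SD, n = 3) and of 0.199% without replicate 1. It made up 66 of the 77 family counts, 85.7% (exact 95% interval 75.9% to 92.6%). Within single batches its part of the family was 87.5%, 82.8% and 87.5%, so the batches did not differ in which member led. miR-200b-3p was the only member above the 3-count level in any batch, and it was above it in all 3.

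The other chromosome 1 members were at or near the limit of detection. miR-200a-3p, made from the neighboring hairpin of the same transcript, had 1, 2 and 0 counts. miR-429, which shares the seed of miR-200b-3p, had 0, 1 and 0 counts. Of the 5p arms, the strands that are usually discarded, miR-200a-5p had 2, 0 and 0 counts, and miR-200b-5p had 0 in every batch. None of these values exceeded the 3 counts taken as the floor in its batch.

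On chromosome 12, miR-200c-3p had 1, 2 and 2 counts in batches 1, 2 and 3, with a mean share of 0.0184% ± 0.00686 (SD, n = 3). It was the only member other than miR-200b-3p with a count in each batch, although each count lay under the 3-count level. Over all batches its 5 counts, 0.0182% (exact 95% interval 0.00591% to 0.0425%), were above the floor of 3 counts, 0.0109%. miR-141-3p, the second miR of that cluster, had 0 counts in all 3 batches. For miR-141-3p and miR-200b-5p, the floor for 0 of 27471 counts was 0.0109%, and the exact 95% interval reached 0.0134%. The 66 counts of miR-200b-3p were 22-fold the floor of 3 counts set over all batches. This is no lower bound on its ratio to either miR, since the counting error of the 66 is left out. In total, 5 of the 7 names had at least 1 count, 4 had at least 2 in sum, 2 had a count in every batch and 1 reached 10 in sum.

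**Figure D1:**
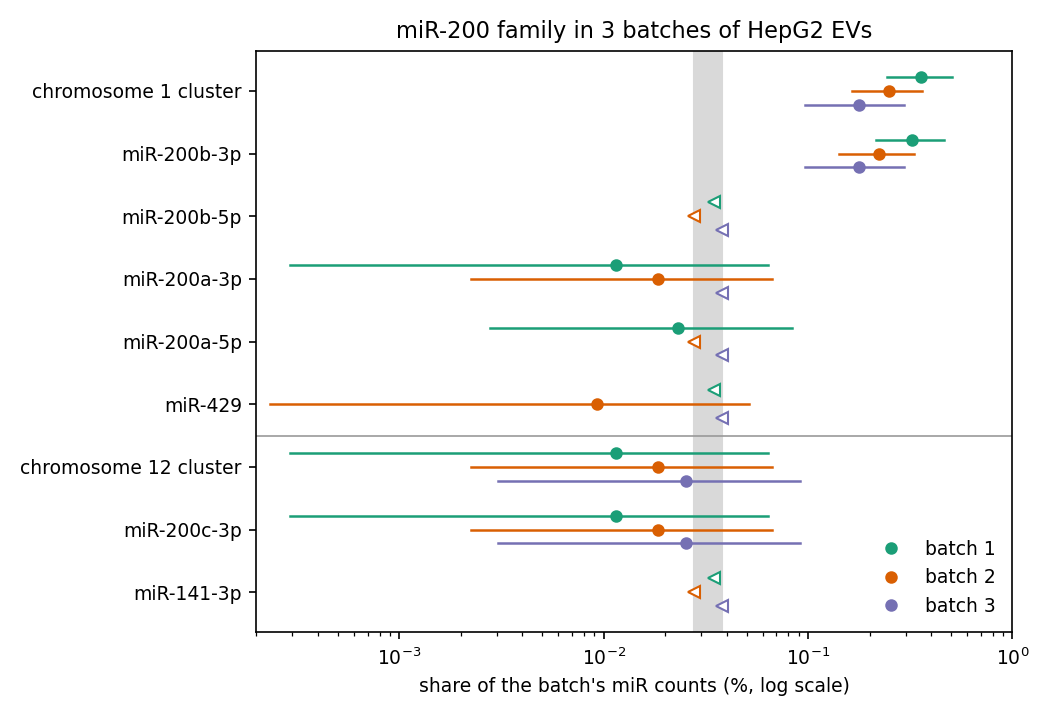
Share of each batch's miR counts (percent, log scale) for the 7 family members and the sum of each cluster, one color per batch. Points are shares with exact 95% intervals (the lower end is cut at the left edge where needed), open triangles mark a count of 0 at the share that 3 counts would give, and the gray band spans these floors, 0.0277% to 0.0378%. Only miR-200b-3p and the chromosome 1 sum that it dominates lie to the right of the band.

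The clusters differed in the same direction in each batch. The chromosome 1 cluster had 31, 27 and 14 counts in batches 1, 2 and 3, against 1, 2 and 2 for the chromosome 12 cluster, so the values did not overlap. The chromosome 1 cluster held 0.261% ± 0.0904 of the miR counts and the chromosome 12 cluster 0.0184% ± 0.00686 (SD, n = 3 each). With 0.5 added to both sums, the log2 ratio was 4.39, 3.46 and 2.54, with a mean of 3.46 ± 0.93 (SD, n = 3). The exact two-sided sign-flip permutation test over the 3 batches gave p = 0.25. No smaller p can be had with 3 batches, so this comparison could not pass 0.05 whatever its size. Over the summed counts the chromosome 1 cluster was 14.4-fold higher (exact 95% interval 5.89 to 45.7), and it held 93.5% of the family counts (85.5% to 97.9%). The ratio rests on the leading miRs, since miR-200b-3p alone was 13.2-fold higher than miR-200c-3p (5.38 to 42.0). Adapter ligation depends on sequence, so a ratio of counts between miRs is not a ratio of molecules, and its part in these ratios was not tested.

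The counts were also uneven by seed. The members with the seed of miR-200b-3p, which are miR-200b-3p, miR-200c-3p and miR-429, had 29, 27 and 16 counts. The members with the seed of miR-200a-3p, miR-200a-3p itself and miR-141-3p, had 1, 2 and 0. The log2 ratio was 4.27 ± 0.79 (SD, n = 3), above 0 in 3 of 3 batches, with p = 0.25 in the exact sign-flip permutation test. Over the summed counts the ratio was 24 (exact 95% interval 7.89 to 119), and 96% of the 75 counts of the 3p members carried the seed of miR-200b-3p (88.8% to 99.2%). All 3 counts with the seed of miR-200a-3p came from miR-200a-3p itself. Of the 72 counts with the seed of miR-200b-3p, 66 came from miR-200b-3p, 5 from miR-200c-3p and 1 from miR-429. The ratio therefore rests on miR-200b-3p and does not describe the seed group as a whole.

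The 3p arms held 75 of the 77 family counts, 97.4% (exact 95% interval 90.9% to 99.7%). This share leaves out the 5p arms of miR-200c and miR-141, which were not analysed here, so the 5p counts come from the chromosome 1 cluster alone. For miR-200b, the log2 ratio of the 3p to the 5p arm with 0.5 added was 5.83, 5.61 and 4.86 in batches 1, 2 and 3. This ratio depends on the added value because the 5p arm was at 0 throughout. For miR-200a, 3 counts of the 3p arm stood against 2 of the 5p arm, a ratio of 1.5 with an exact 95% interval from 0.172 to 18, so no preferred arm was detectable at this depth.

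The unequal counts of miRs from 1 long transcript were set beside those of 8 other clusters. miR-200b held 91.7% of the 72 counts of the chromosome 1 cluster (exact 95% interval 82.7% to 96.9%), with both arms of each miR summed, and its counts were 13.2-fold those of miR-200a. In the cluster of miR-96, miR-182 and miR-183, which is expressed in sensory and many epithelial cells, the leading miR-183 held 54.1% of 623 counts (50.1% to 58.1%). In the cluster of miR-106b, miR-93 and miR-25, the leading miR-25 held 43.0% of 393 (38.0% to 48.1%). Other clusters were as uneven as that of miR-200b, with miR-99b at 88.4% of the counts of its cluster, miR-192 at 97.7% and miR-191 at 98.9%. The intervals of miR-200b and miR-99b overlapped, and a dominant member was thus no feature of the miR-200 family alone. Mature miR-24, miR-92a, miR-19b and miR-194 also come from a second locus, so their clusters' sums include counts from elsewhere.

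**Figure D2:**
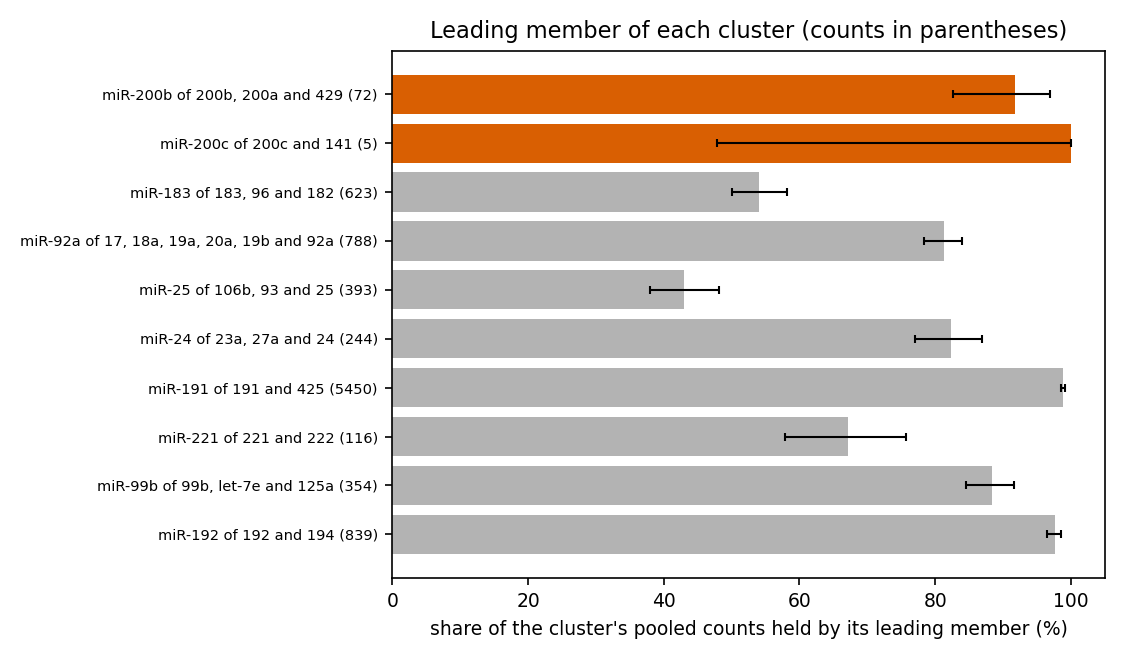
Share of a cluster's counts, summed over the batches, that its leading member held (percent, axis from 0), for the miR-200 clusters in orange and 8 other clusters in gray. Bars are shares, whiskers exact 95% intervals for counting error, and the number in parentheses is the cluster's total, which is 72 and 5 for the miR-200 clusters. The chromosome 1 bar, 91.7%, lies among the longer bars, and that of miR-200c rests on 5 counts.

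By counts summed over the batches, miR-200b-3p took place 41 of the 512 names, with places 40, 44 and 47 in batches 1, 2 and 3. Its neighbors in this order were miR-17-5p with 73 counts, miR-455-5p with 72, miR-20a-5p with 63 and miR-941 with 60. The mean shares were 0.264% ± 0.0659 for miR-17-5p, 0.267% ± 0.0476 for miR-455-5p, 0.229% ± 0.0136 for miR-20a-5p and 0.218% ± 0.0322 for miR-941 (SD, n = 3 each). None of these differed from miR-200b-3p by more than the spread between batches. They were picked as the nearest places by these same counts, so this closeness was fixed in advance. miR-200c-3p stood at place 120, miR-200a-3p at 144, miR-200a-5p at 166 and miR-429 at 206, each tied with other names.

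**Figure D3:**
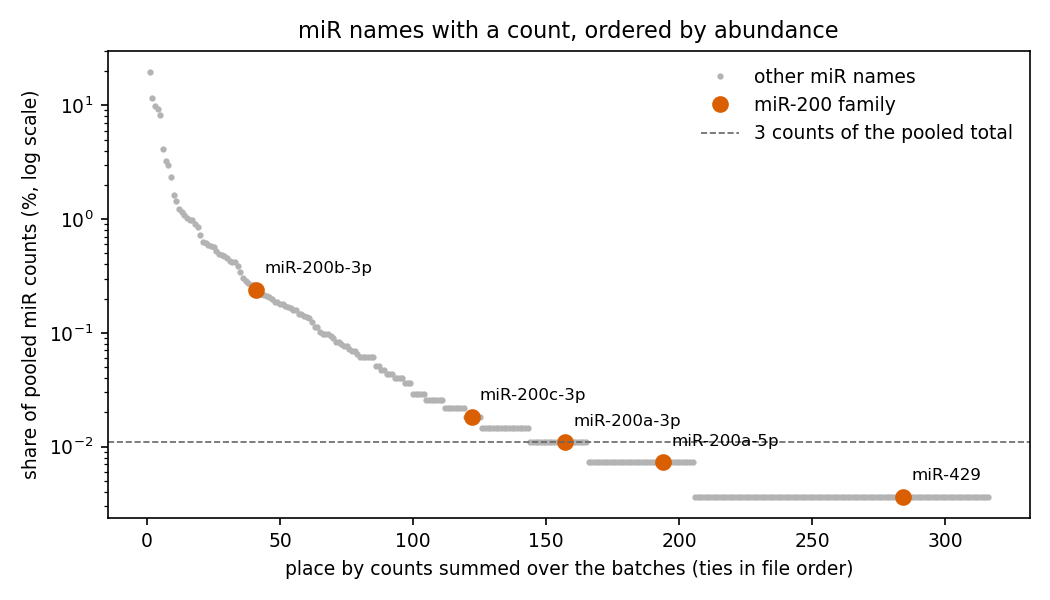
Share of the counts summed over the batches (percent, log scale) against the place of each miR name with at least 1 count. The family, in orange, is spread from miR-200b-3p at place 41 with 0.240% down to miR-429 among the names with a single count, and the dashed line marks 3 counts of the pooled total, 0.0109%.

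Whether miR-200b-3p differed between the batches was asked with an exact multinomial test of the counts against the batch totals, run for all 64 miRs with at least 30 counts in sum. This test compares libraries, not conditions. Its share was 1.45-fold higher in batch 1 than in batch 2 (exact 95% interval 0.812 to 2.62) and 1.82-fold higher than in batch 3 (0.928 to 3.75). For the whole chromosome 1 cluster the share was 2.02-fold higher in batch 1 than in batch 3 (1.04 to 4.11), an interval that leaves out 1. The cluster's intervals for batch 1 over batch 2 (0.825 to 2.49) and batch 2 over batch 3 (0.715 to 2.91) hold 1. For the family the share was 1.82-fold higher in batch 1 than in batch 3 (0.971 to 3.56). These intervals were not adjusted for the number of pairs, and they used the unscaled batch totals alone. The exact multinomial test gave p = 0.156 and a Benjamini-Hochberg adjusted p of 0.263 over the 64 miRs, so miR-200b-3p was not called. Of the 64 miRs tested, 25 (39.1%) were called, and of the 14 with 50 to 85 counts, a depth like that of miR-200b-3p, 2 were. Without replicate 1, 4 of 50 were called. The interval of miR-200b-3p still allows a share 3.75-fold higher in batch 1 than in batch 3. The other 6 family members had fewer than 30 counts and were not in this test, and the sums over a cluster or the family were not tested.

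Of the 64 tested miRs, 45 had a higher share in batch 1 than in batch 3. On the log2 scale, the share of miR-200b-3p in batch 1 exceeded that in batch 3 by 0.87, while the median over the 64 miRs was 0.42 and the range was -1.06 to 2.33. Relative to this median the excess was 0.44, and miR-200b-3p took place 18 of 64 from the top. The 3 miRs whose split over the batches was nearest to its own were miR-140-3p, miR-342-3p and miR-17-5p, with Euclidean distances of 0.0245, 0.0258 and 0.0337 between the batch shares scaled to sum to 1. With 3 batches this likeness is a description only. miR-140-3p had 72, 67 and 35 counts, so that its share too was highest in batch 1 and lowest in batch 3.

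**Figure D4:**
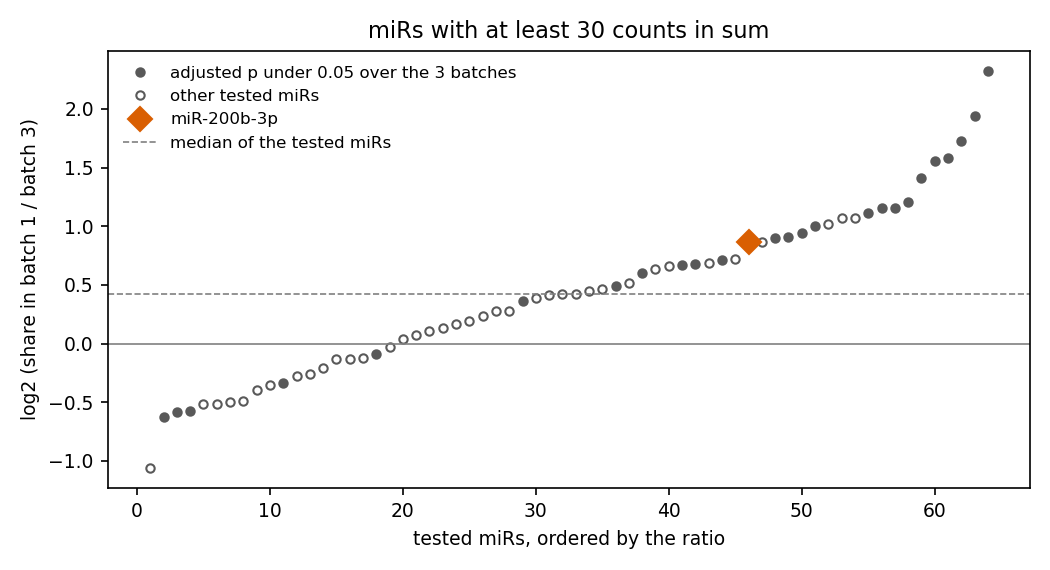
Log2 ratio of the share in batch 1 to that in batch 3 for the 64 miRs with at least 30 counts, ordered by the ratio. Filled points had an adjusted p under 0.05 in the exact multinomial test over the 3 batches, open points did not, the diamond is miR-200b-3p at 0.87, and the dashed line is the median, 0.42.

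The family was set beside lists of miRs labelled here as epithelial and mesenchymal. Whether each listed miR is particular to such cells was not tested. The other epithelial list, miR-203a-3p, miR-205-5p, miR-375, miR-31-5p and miR-34a-5p, had 4 counts in all, 2 of them of miR-34a-5p. In this list miR-203a-3p and miR-205-5p, miRs of stratified epithelium, were at 0 in each batch. The mesenchymal list had 10, 4 and 5 counts in batches 1, 2 and 3, of which miR-145-5p, a miR of smooth muscle, held 13. In sum miR-143-3p had 4 counts and miR-199b-3p had 2. miR-199a-5p, miR-199b-5p, miR-214-3p and miR-155-5p had no count, and miR-199a-3p was not analysed here. The log2 ratio of the miR-200 family to the mesenchymal list was 1.98 ± 0.64 (SD, n = 3), above 0 in 3 of 3 batches. The exact sign-flip permutation test gave p = 0.25, the smallest possible. Over the summed counts the family was 4.05-fold higher (exact 95% interval 2.43 to 7.09). This rests on miR-200b-3p, with 66 of the 77 family counts, since no other member had more than 5 against 19 for the mesenchymal list. The other epithelial list, with 4, was lower than the mesenchymal list.

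The family was also set beside other clusters, which were chosen with earlier results of these data known. Its counts were lower than theirs. The cluster of miR-96, miR-182 and miR-183 had 162, 280 and 181 counts, 8.09-fold those of the family in sum (exact 95% interval 6.38 to 10.4). The clusters of miR-192, miR-194 and miR-215, of liver, gut and kidney epithelium, had 246, 335 and 262 counts, 10.9-fold those of the family (8.66 to 14.0). This ratio rests on miR-192-5p, which held 820 of the 843 counts. In sum miR-194-5p had 17, miR-215-5p 4 and miR-194-3p 2, each fewer than the 77 of the family. Both groups were higher in 3 of 3 batches, with p = 0.25 in the exact sign-flip permutation test, the smallest possible. Their shares were lowest in batch 1, whereas that of the family was highest there, and this difference in order was not tested.

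Both host genes hold the E-box CACCTG near their start, the motif that ZEB1 binds, searched on both strands as CACCTG and CAGGTG in the 300 bases from 250 before to 50 after the RefSeq start. MIR200BHG had 2 matches and MIR200CHG had 1. Of 35116 windows of this length in the table, 20.6% held at least 1 match and 3.49% at least 2. One match from each gene is printed on the plus strand of GRCh38.p14, with the motif in capitals. The MIR200BHG match was picked because the bases just before its motif are like those in MIR200CHG. Those before its other match differ, and how often such likeness occurs was not tested.
MIR200BHG, chr1:1162763-1162792: gcccaggggacaCACCTGtcgggggccagg
MIR200CHG, chr12:6963155-6963184: ggcaggaggacaCACCTGtgcgcagggtgg

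The predicted partners of the seeds were looked up in the transcripts of GENCODE 29, as a description of sequence and not of any measured effect. The longest annotated 3′ UTR of ZEB1, of 2552 bases, held 6 matches to the seed of miR-200b-3p (CAGTATT) and 3 to that of miR-200a-3p (CAGTGTT). That of ZEB2, of 5373 bases, held 5 and 4. Among 2374 other genes with a 3′ UTR within 20% of the length of that of ZEB1, 25.9% held the first match and 29.4% the second, none held as many as 6 of the first, and 16 held as many as 3 of the second. Among 1114 genes near the length of ZEB2, 45.7% and 51.7% did, none held as many as 5 of the first, and 14 held as many as 4 of the second. A site of each kind in ZEB1 is shown with the match in capitals.
ZEB1, seed of miR-200b-3p, chr10:31527618-31527640: attgttttatcttatCAGTATTa
ZEB1, seed of miR-200a-3p, chr10:31528031-31528053: caaaatcatcagaatCAGTGTTt

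The study asked which EV miRs may target collagen, ACTA2, MMP and TIMP genes. It used miRWalk, which searches whole transcripts for predicted sites, and did so for its most abundant miRs. The search here is a different measure, as it took seed matches in human 3′ UTRs alone. The study gave the EVs to mice, whose transcripts were not searched here. In the longest annotated 3′ UTR of 72 such genes, 7 (9.72%) held a match to the seed of miR-200b-3p and 6 (8.33%) one to the seed of miR-200a-3p. Over 19055 protein-coding genes these shares were 16.0% and 18.3%, with a median length of 1107 bases against 1055. The first match was in COL21A1, COL25A1, COL4A3, COL6A6, COL9A2, MMP16 and TIMP2, which encodes an inhibitor of metalloproteinases. The second was in COL4A3, COL4A6, COL15A1, MMP16, MMP24 and MMP25. MMP16, a membrane-bound metalloproteinase with a 3′ UTR of 9455 bases, held 2 of the first and 4 of the second.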

How the data were processed

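RNA from 3 batches of HepG2 EVs was measured by small RNA sequencing. The authors made the libraries with a NEBNext kit, used a MiniSeq sequencer and miRTrace for quality control, and deposited raw counts for each miR, without normalization, and the mean of the 3 counts in another column, which was used here only as the authors' value and is not printed. A second deposited table repeats the counts of the 205 names with at least 2 in sum. The processing notes name GRCh38, and neither aligner nor counter is named in the sources used here.

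Shares were taken of each batch's total, 7933 to 10834 counts, and 0.5 was added before log2 ratios. Those miRs with at least 30 counts in sum were tested across the batches by an exact multinomial test with full enumeration, Benjamini-Hochberg adjustment and a threshold of 0.05, after a check on simulated data. Intervals are exact Clopper-Pearson at 95%, and a count of 0 was taken to allow 3 counts. Alternatives covered the totals (edgeR TMM factors of 1.23, 0.895 and 0.911, DESeq2 size factors, totals without the 5 most abundant miRs), count filters, the value added, pooling and each batch left out. Named miRs were all members, the fixed lists, the nearest places to miR-200b-3p and the 3 most alike splits. The genes with seed matches and the printed sites were chosen after the data were seen. The members and lists were chosen with earlier results of these data known. Of the 512 names, 451 matched a RefSeq mature miR. Python 3.11.15, numpy 2.4.6, scipy 1.17.1, pandas 2.3.3, matplotlib 3.10.9, R 4.3.3, edgeR 4.0.16 and DESeq2 1.42.0 were used.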

Additional observations from a re-analysis of the deposited data

How the results depend on the processing

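No paired analysis was possible because there was no second condition to pair the batches with, and ratios between miRs were taken within each batch. The higher counts of the chromosome 1 cluster, of the seed of miR-200b-3p and of the 3p arm of miR-200b kept their direction under all 17 alternatives. Given the counts, these alternatives could not have changed it. Each ratio was above 0 in every batch, so adding 1, pooling or leaving a batch out could not reverse its direction. Nor could taking 3p arms only or the best counted member of each cluster. In batches 1, 2 and 3, miR-200b-3p alone had 28, 24 and 14 counts, against 1, 2 and 2 for the chromosome 12 cluster. These choices gave mean log2 ratios of 3.43 and 3.36 for the clusters. The mean log2 ratio of the clusters ran from 2.998 to 3.93 with 1 batch left out. The family share was 0.662% with totals that leave out the 5 most abundant miRs, because the totals shrink, and from 0.235% to 0.318% with 1 batch left out. miR-200b-3p was not called between batches under any of 8 alternatives, with an adjusted p in the exact multinomial test from 0.136 to 0.898. The number of miRs called was 25 of 64, 15 of 59 without the 5 most abundant miRs, which left both the totals and the tests and of which 4 were among the 25, 22 with TMM and 22 with DESeq2 size factors, and from 4 (without replicate 1) to 18 with 1 batch left out. The number of family names present was 4, 2 with a count asked for in every batch and 1 with 10 in sum. At these depths, 6 of the 7 members had fewer than 30 counts in sum, and those without a count could not be compared between batches.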
